A study of Mus musculus with 10 samples.

Results

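PRDM16 partner genes were followed in mouse thoracic aorta after deletion of *Prdm16* in vascular smooth muscle cells (VSMCs), and at Flag-PRDM16 peaks in vascular fibroblasts. The 10 members, *Ctbp1*, *Ctbp2*, *Ehmt1*, *Ehmt2*, *Cebpb*, *Ebf2*, *Med1*, *Hdac1*, *Hdac2*, and *Kdm1a*, are known cofactors and corepressors of PRDM16 and were picked by name from the 55426 genes of the expression table, of which 15668 passed the filter on low values. All 10 members passed it. RNA-Seq covered whole thoracic aortas of 3 control and 3 Prdm16SMKO mice. Control mice carried *Prdm16* f/f, both alleles flanked by loxP sites, without Cre. Prdm16SMKO mice carried *Prdm16* f/f with SMMHC-CreERT2, a tamoxifen-inducible Cre driven by the *Myh11* promoter and inserted on the Y chromosome, so that these mice were male. Per the study's methods, tamoxifen was given from 8 weeks of age for 5 days, followed by a washout of 2 weeks, on a C57BL/6J background. The sources used here do not say whether control mice received tamoxifen or how old the mice were at RNA collection, so deletion, Cre, and tamoxifen cannot be told apart. ChIP-Seq used wild-type primary vascular fibroblasts that carried a lentivirus for Flag-PRDM16 or the vector alone, taken up over 48 hours, and that had been kept in puromycin (2 μg/mL) during 1 week of selection. Each condition had 1 anti-Flag library, so no peak value has a replicate.

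PRDM16 is a zinc finger protein that switches genes on or off according to the proteins it recruits. CTBP1 and CTBP2 are corepressors that bring in KDM1A, a histone H3K4 demethylase, and the deacetylases HDAC1 and HDAC2. EHMT1 and EHMT2 form the complex that mono- and dimethylates histone H3K9. On the activating side, C/EBPβ and EBF2 are DNA-binding partners of PRDM16 in brown adipocytes, and MED1 is the Mediator subunit through which PRDM16 contacts the transcription machinery.

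The sequences at 7 Flag-PRDM16 peaks are shown because the peaks were uneven among the members: 6 members had a peak at a promoter, 4 did not, and *Kdm1a* had 1 deep in an intron. Each line gives 100 bases around the peak summit, read 5′ to 3′ on the strand of the gene from the GRCm38.p6 assembly of RefSeq. Capitals mark the palindrome CACGTG, the E-box core, and TGAGTCA, the core of the AP-1 element. Both motifs were picked after these windows had been seen, and no bases are in capitals where neither motif occurs. The windows of the first exon of *Ctbp2* and of the 5′ UTR of *Ebf2* are not printed.
*Ctbp1*, intron 1, chr5:33274239-33274338, minus strand: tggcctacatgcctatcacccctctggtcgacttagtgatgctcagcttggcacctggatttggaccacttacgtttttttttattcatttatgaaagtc
*Ctbp2*, upstream of the first start site, chr7:133124161-133124260, minus strand: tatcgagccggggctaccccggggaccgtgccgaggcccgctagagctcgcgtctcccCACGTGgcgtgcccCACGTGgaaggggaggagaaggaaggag
*Ehmt2*, exon 1 and intron 1, chr17:34899251-34899350, plus strand: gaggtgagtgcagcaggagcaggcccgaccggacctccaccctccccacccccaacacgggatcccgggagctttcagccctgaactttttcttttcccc
*Cebpb*, upstream, chr2:167687392-167687491, plus strand: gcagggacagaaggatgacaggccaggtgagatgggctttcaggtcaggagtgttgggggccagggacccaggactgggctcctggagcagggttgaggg
*Ebf2*, intron 1, chr14:67236082-67236181, plus strand: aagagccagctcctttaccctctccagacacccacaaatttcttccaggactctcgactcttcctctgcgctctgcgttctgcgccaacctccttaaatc
*Hdac1*, exon 1 and intron 1, chr4:129542499-129542598, minus strand: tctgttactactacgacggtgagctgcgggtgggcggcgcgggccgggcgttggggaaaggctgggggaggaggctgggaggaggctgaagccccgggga
*Kdm1a*, intron 8, chr4:136570122-136570221, minus strand: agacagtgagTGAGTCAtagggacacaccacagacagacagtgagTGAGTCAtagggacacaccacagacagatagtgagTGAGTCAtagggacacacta

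The upstream *Ctbp2* window held CACGTG 2 times. Of the 100-base windows at all 11258 peaks on assembled chromosomes, 1.69% held it at least once and 3 windows held it 2 or more times. The *Kdm1a* window consisted of a tandem repeat in which TGAGTCA stood 3 times, on the gene's strand. It was the only window of all 11258 with 3 or more copies, and 0.826% held at least 1. The other 5 windows printed held neither motif. They ranged from 44.0% G or C in the *Ctbp1* window to 71.0% in that of *Hdac1*, and from 0 CpG in that of *Cebpb* to 9 CpG in that of *Hdac1*.

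For contrast, the 100 bases before the start site of *Hdac2* and of *Ehmt1*, 2 members without a peak within 10 kb, come from the RefSeq promoter table on the same build.
*Hdac2*, chr10:36974444-36974543, plus strand: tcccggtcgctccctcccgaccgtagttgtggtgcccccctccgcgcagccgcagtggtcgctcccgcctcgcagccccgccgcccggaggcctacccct
*Ehmt1*, chr2:24919610-24919709, minus strand: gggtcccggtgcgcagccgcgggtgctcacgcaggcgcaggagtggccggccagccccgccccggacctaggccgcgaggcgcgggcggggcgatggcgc
These promoters, taken from 250 bases before to 50 after the start, were 69.7% and 71.7% G or C, against a median of 52.7% over 32851 promoters of the table. The table's 2 *Ctbp2* promoters, 43.7% and 52.0%, are not those of the start site by that gene's promoter peaks. Of members with a promoter peak, *Ctbp1* was 78.7%, *Cebpb* 80.7%, and *Ehmt2* 70.3% and 82.7% at its 2 start sites. *Med1* and *Kdm1a*, without one, were 68.3% and 61.3%. Whether G and C content goes with the peaks was not tested. The table matched 8 of the 10 members. *Hdac1* and *Ebf2* had no entry.

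Transcript levels of the members spanned from 1.70 to 116 TPM (a level corrected for transcript length and library size) over the 6 aortas. *Ctbp1* (mean 83.5 TPM over the 6 aortas) and *Cebpb* (79.8 TPM) were highest and lay above 93.1% and 92.7% of the genes tested. *Ehmt2* (44.6 TPM), *Hdac1* (43.7 TPM), and *Hdac2* (38.2 TPM) followed, then *Ctbp2* (25.1 TPM), *Kdm1a* (24.8 TPM), and *Ehmt1* (21.7 TPM). *Med1* (10.02 TPM) and *Ebf2* (2.46 TPM, above 26.6% of the genes tested) were lowest. The steps from *Cebpb* to *Ehmt2*, *Hdac2* to *Ctbp2*, *Ehmt1* to *Med1*, and *Med1* to *Ebf2* held in 6 of 6 aortas. Between the other neighbors the order changed with the aorta, as for *Ctbp1* above *Cebpb* (4 of 6), *Ehmt2* above *Hdac1* (2 of 6), and *Ctbp2* above *Kdm1a* (4 of 6). In whole aorta, fewer cells of a type and less RNA per cell cannot be told apart.

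**Figure D1:**
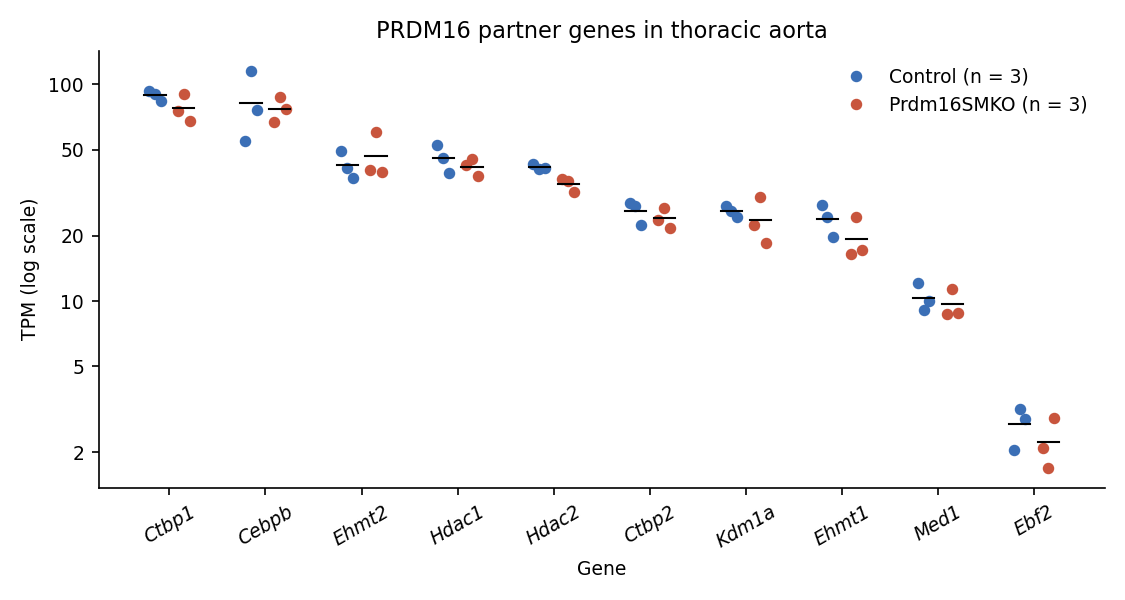
Level of each PRDM16 partner gene in each aorta, in TPM on a log axis, with genes ordered by mean level. Points are single aortas and black lines are group means (3 control and 3 Prdm16SMKO); the groups overlap for every gene except *Hdac2*.

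The targeted gene had lower values in the Prdm16SMKO aortas. *Prdm16* stood at 56.1, 47.6, and 40.3 TPM in controls 1, 2, and 3 and at 23.3, 33.3, and 23.4 TPM in Prdm16SMKO aortas 1, 2, and 3, with no overlap (log2 fold change −0.85 ± 0.18 SE, limma adjusted P = 0.0725). It missed the adjusted threshold of 0.05 and passed it when Prdm16SMKO aorta 2, which kept the most *Prdm16*, was left out (−1.02, adjusted P = 0.0398). Leaving out any other aorta gave a limma adjusted P from 0.111 to 0.230. Over all genes 168 of 15668 (1.07%) were called, 61 higher and 107 lower, and the median log2 fold change of all genes tested was −0.12, a shift that rescaling by median ratio brought to 0.0046. Summed smooth muscle markers lay between 21019 and 24568 TPM in controls and between 14076 and 18176 TPM in Prdm16SMKO aortas, and the part of this difference in the members' values was not tested. *Acta2* was the largest part of these sums, with means of 11569 TPM in controls and 7512 TPM in Prdm16SMKO aortas. *Des* was the 1 marker of this list with a higher mean in Prdm16SMKO aortas (70.2 TPM, against 52.0 TPM in controls). Summed brown adipocyte markers were present in every aorta, from 435 to 1787 TPM in controls and from 517 to 1275 TPM in Prdm16SMKO aortas. *Fabp4* was the largest part of these sums, with means of 626 TPM in controls and 477 TPM in Prdm16SMKO aortas.

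None of the 10 members passed the adjusted threshold of the limma fit between Prdm16SMKO and control aortas, where 1.07% of all genes did. None had an unadjusted P under 0.05 either, and their adjusted P ran from 0.402 to 0.977. *Ehmt2* was the 1 member with a higher mean and the other 9 had lower means, as had 67.9% of all genes tested. The median log2 fold change of the members, −0.14, lay next to the −0.12 of all genes tested, and 6 of the 10 lay below that median. Over the members the 95% intervals ran from 53.0% to 146% of the control level, and the narrowest, that of *Hdac2*, from 69.8% to 100.3%.

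The corepressors at the core of the complex kept overlapping levels. *Ctbp1* stood at 93.3, 90.0, and 83.6 TPM in controls 1, 2, and 3 and at 75.8, 90.4, and 67.9 TPM in Prdm16SMKO aortas 1, 2, and 3 (log2 fold change −0.20 ± 0.13 SE, limma adjusted P = 0.567). Prdm16SMKO aorta 2 lay among the controls and the other 2 below them. Its paralog *Ctbp2* stood at 28.2, 27.5, and 22.5 TPM in controls and at 23.8, 26.9, and 21.6 TPM in Prdm16SMKO aortas (−0.11 ± 0.14, adjusted P = 0.794), with the third aorta of each group the lowest. *Kdm1a*, the demethylase that CtBP brings in, stood at 27.5, 26.0, and 24.3 TPM in controls and at 22.4, 30.1, and 18.5 TPM in Prdm16SMKO aortas (−0.16 ± 0.18, adjusted P = 0.748). The Prdm16SMKO values of *Kdm1a* enclosed all 3 controls. *Kdm1a* lies 17.7 Mb from *Prdm16* on chromosome 4, and *Hdac1* lies 24.8 Mb from it.

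The deacetylases differed in how their groups fell. *Hdac2* was the only member whose groups did not overlap, with 42.9, 40.6, and 41.1 TPM in controls 1, 2, and 3 and 36.6, 36.0, and 31.8 TPM in Prdm16SMKO aortas 1, 2, and 3. Its mean was 41.5 ± 1.19 TPM (SD, n = 3) in controls and 34.8 ± 2.65 TPM (SD, n = 3) in Prdm16SMKO aortas. The log2 fold change of −0.26 ± 0.12 SE gave an unadjusted P of 0.0530 and an adjusted P of 0.402 in the limma fit, with a 95% interval from 69.8% to 100.3% of control. Of all genes tested, 14.9% had every Prdm16SMKO value below every control value, and 19.0% did not overlap in either direction, so 1 of 10 members was no more than the background share. *Hdac1* stood at 52.4, 45.6, and 38.9 TPM in controls and at 42.3, 45.1, and 37.7 TPM in Prdm16SMKO aortas (−0.12 ± 0.14, adjusted P = 0.759), and its groups overlapped.

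The H3K9 methyltransferases had means on opposite sides of control. *Ehmt1* stood at 27.8, 24.3, and 19.7 TPM in controls 1, 2, and 3 and at 16.5, 24.6, and 17.2 TPM in Prdm16SMKO aortas 1, 2, and 3 (log2 fold change −0.31 ± 0.19 SE, limma adjusted P = 0.537). *Ehmt2* stood at 49.3, 41.2, and 36.9 TPM in controls and at 40.3, 60.4, and 39.6 TPM in Prdm16SMKO aortas (0.12 ± 0.19, adjusted P = 0.833). Both genes were highest, within the Prdm16SMKO group, in aorta 2. Without that aorta the log2 fold change of *Ehmt2* was −0.076, beside a median of −0.18 over all genes tested. With every aorta kept, *Ehmt2* changed by 0.24 after rescaling by median ratio (limma adjusted P = 0.401), beside a median of 0.0046 over all genes. After quantile normalization *Ehmt2* changed by 0.27 (limma adjusted P = 0.381), beside a median of −0.0053. Neither gene passed the test.

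The DNA-binding partners varied most among aortas. *Cebpb* ran from 54.8 TPM in control 1 to 116 TPM in control 2, with control 3 at 76.1 TPM, and Prdm16SMKO aortas 1, 2, and 3 at 67.4, 87.3, and 77.2 TPM lay inside that range (log2 fold change −0.030 ± 0.24 SE, limma adjusted P = 0.977). Control 1 and control 2 were also the aortas with the lowest (435 TPM) and the highest (1787 TPM) sum of brown adipocyte markers, whereas among Prdm16SMKO aortas *Cebpb* was highest in aorta 2, which had the lowest sum (517 TPM). The part of cells with these markers in the spread of *Cebpb* was not tested. *Ebf2*, a factor of adipocyte precursors, stood at 2.06, 3.18, and 2.84 TPM in controls and at 2.09, 1.70, and 2.88 TPM in Prdm16SMKO aortas (−0.28 ± 0.28, adjusted P = 0.719). Its 95% interval, from 53.0% to 129% of control, was the widest of the members on the log2 scale. *Med1* stood at 12.1, 9.06, and 9.97 TPM in controls and at 8.74, 11.4, and 8.84 TPM in Prdm16SMKO aortas (−0.10 ± 0.18, adjusted P = 0.852), and its groups overlapped.

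**Figure D2:**
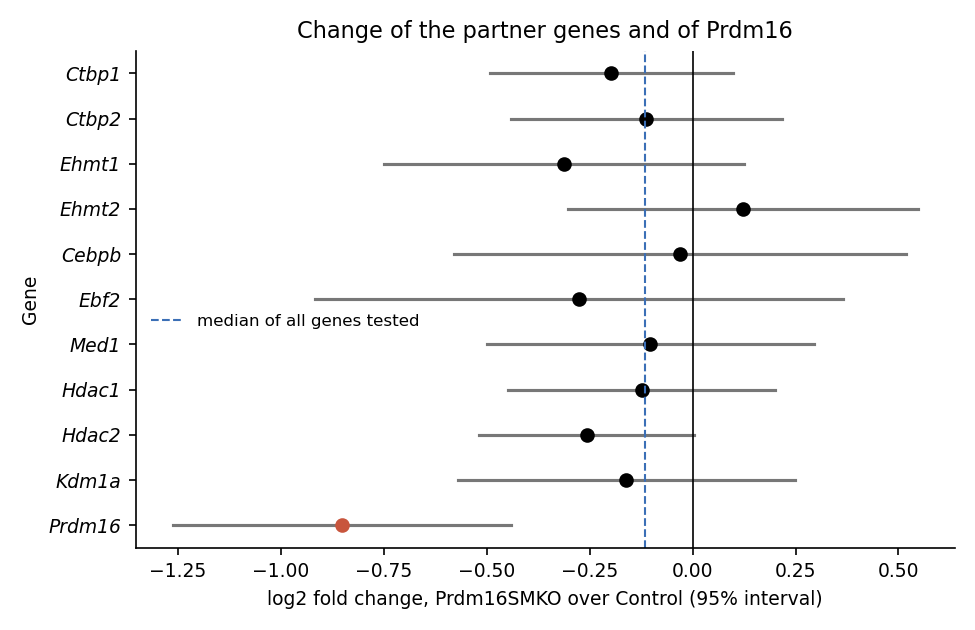
Log2 fold change of each PRDM16 partner gene and of *Prdm16* in Prdm16SMKO over control aortas, with 95% intervals from the limma fit (3 aortas per group). Every partner interval includes 0 and the points lie from −0.31 to 0.12 around the dashed median of all genes, −0.12, while that of *Prdm16* lies at −0.85.

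Levels of the members shared a pattern across aortas. Within the Prdm16SMKO group, aorta 2 held the highest value for 8 of the 10 members and aorta 3 the lowest for 6. Within the control group, aorta 1 held the highest value for 8 members and aorta 2 for the other 2, *Cebpb* and *Ebf2*. Since the members share the library of an aorta and its scale, these counts are not 10 separate results. The share of all genes that were highest or lowest in each aorta was not counted, and the part of library scale was not tested.

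A ratio of 2 paralogs within 1 aorta does not move with the scale of the library, so the balance of each paralog pair was compared between the groups. The *Ehmt1* to *Ehmt2* ratio was 0.565, 0.590, and 0.535 in controls 1, 2, and 3 and 0.410, 0.407, and 0.433 in Prdm16SMKO aortas 1, 2, and 3. Every Prdm16SMKO aorta had a lower ratio than every control, including aorta 2, in which both genes were high. The mean ratio was 0.563 ± 0.0278 (SD, n = 3) in controls and 0.417 ± 0.0144 (SD, n = 3) in Prdm16SMKO aortas. An exact two-sided permutation test gave P = 0.1, the smallest that 3 aortas against 3 allow, and 0.3 after Benjamini-Hochberg adjustment over the 3 ratios. The difference in log2 ratio, Prdm16SMKO minus control, was −0.44, and −0.40 to −0.47 with any 1 aorta left out. This exact test cannot reach 0.05 with 3 aortas per group.

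The other pairs kept overlapping ratios. *Ctbp1* to *Ctbp2* was 3.30, 3.27, and 3.71 in controls and 3.19, 3.36, and 3.14 in Prdm16SMKO aortas (log2 difference −0.085, exact permutation P = 0.3, adjusted 0.4). *Hdac1* to *Hdac2* was 1.22, 1.123, and 0.946 in controls and 1.15, 1.25, and 1.19 in Prdm16SMKO aortas (log2 difference 0.13, exact permutation P = 0.4, adjusted 0.4). *Hdac1* was the higher of the deacetylase pair in 5 of 6 aortas.

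**Figure D3:**
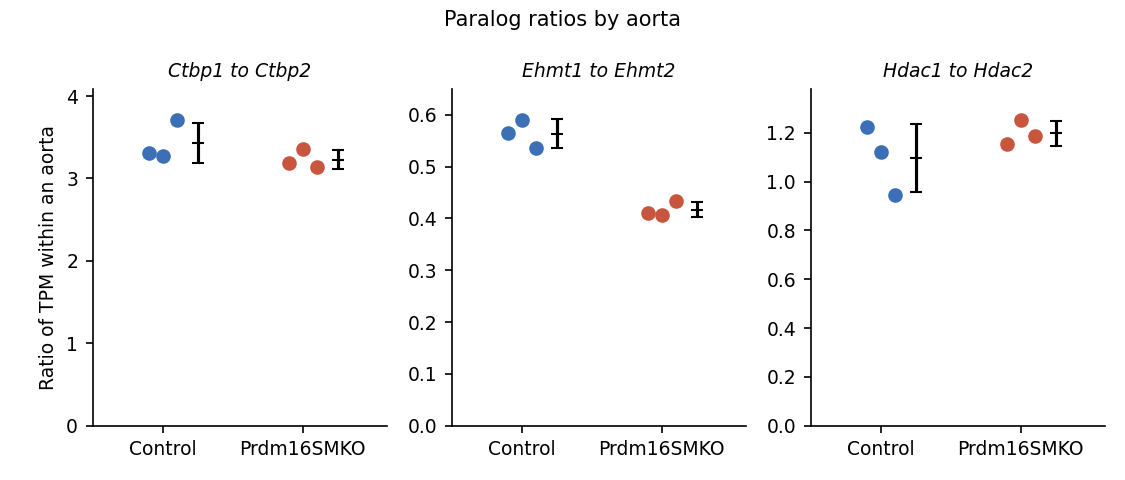
Ratio of TPM of each paralog pair within an aorta, with points for single aortas and bars for the mean and SD (3 control and 3 Prdm16SMKO). The *Ehmt1* to *Ehmt2* ratio separates the groups, from 0.535 to 0.590 against 0.407 to 0.433, and the other ratios overlap.

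Flag-PRDM16 peaks lay in or within 10 kb of 8 of the 10 members, 14 peaks in all, and none overlapped 1 of the 67 peaks of the vector library. A promoter peak, one whose center lies within 2 kb of a start site of a curated RefSeq transcript, was present at 6 members, *Ctbp1*, *Ctbp2*, *Ehmt2*, *Cebpb*, *Ebf2*, and *Hdac1*. Among 13275 genes tested in aorta and matched to RefSeq, 43.4% had one, and 45.9% of the 9884 with a mean level in the members' range. The vector library had a promoter peak at 0 of the 10, but its list of 67 peaks is too short for this 0 to be informative. The 9 promoter peaks had fold enrichments over local background, as the authors' peak caller gave them, from 4.22 to 7.65, beside a median of 5.27 over all peaks. Fold enrichment ranks peaks within this 1 library.

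*Ctbp2* (chr7:132987011-133123483 on GRCm38, minus strand) had 3 peaks. The longest, chr7:133121732-133123366, began just inside the gene, with its center 934 bp after the first start site, a fold enrichment of 7.65, and a −log10 q of 18.0, the highest of any member. A shorter one, chr7:133124034-133124293, had its center at −680 bp from that start site with a fold enrichment of 4.34 and held the paired CACGTG shown above. The third, chr7:133007203-133007802, lay in intron 1 of a shorter transcript, 7.75 kb from its start site, with a fold enrichment of 7.73. *Ctbp1* (chr5:33247723-33275004, minus strand) had 1 peak, chr5:33274230-33274540, in intron 1 at a fold enrichment of 4.57, so both CtBP genes had a promoter peak.

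*Cebpb* (chr2:167688915-167690432, plus strand), a gene of 1 exon, was flanked and overlapped by peaks. Those at chr2:167686395-167686960 and chr2:167687323-167688674 had centers at −2238 and −917 bp from the start, with fold enrichments of 3.87 and 6.51. The peak at chr2:167689344-167690134 lay in the coding exon at 5.71. *Ebf2* (chr14:67233292-67430952, plus strand) had a short peak in the 5′ UTR, chr14:67234699-67235006, at 4.22 and a longer one in intron 1, chr14:67235262-67236941, at 7.13. Both DNA-binding partners thus had more than 1 peak at the promoter, in cells whose RNA was not analysed here.

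In each of the other enzyme pairs 1 paralog had a promoter peak. *Hdac1* (chr4:129516104-129542646, minus strand) had a peak of 247 bp, chr4:129542354-129542600, in intron 1 at 169 bp after the start, with a fold enrichment of 5.98. The peak nearest to *Hdac2* (chr10:36974544-37001888, plus strand) lay 162 kb beyond its start site. *Ehmt2* (chr17:34898474-34914073, plus strand) had a peak at the end of exon 1, chr17:34898994-34899443, at a fold enrichment of 4.92. A weaker peak at chr17:34894600-34895032, with a fold enrichment of 3.03 and a −log10 q of 1.54, lay nearer to the start site of *Zbtb12*. The peak nearest to *Ehmt1* (chr2:24790769-24919609, minus strand) lay 305 kb upstream of its start site, and that gene had none within 10 kb. With 1 library, a gene without a listed peak was below the authors' threshold and not shown to be unbound.

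The remaining members had peaks away from their own promoters. The peak by *Med1* (chr11:98152154-98193293, minus strand), chr11:98149424-98149919, lay beyond the 3′ end of the gene and 55 bp from the start site of *Fbxl20*, at a fold enrichment of 5.06. *Kdm1a* (chr4:136550533-136602723, minus strand) had chr4:136569988-136570281 in intron 8, 32.6 kb from its start site, at 5.29. Its 300 bases around the summit were 46.3% G or C with no CpG, whereas the 9 promoter peaks of members had a median of 67.3% and all peaks 63.3%.

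**Figure D4:**
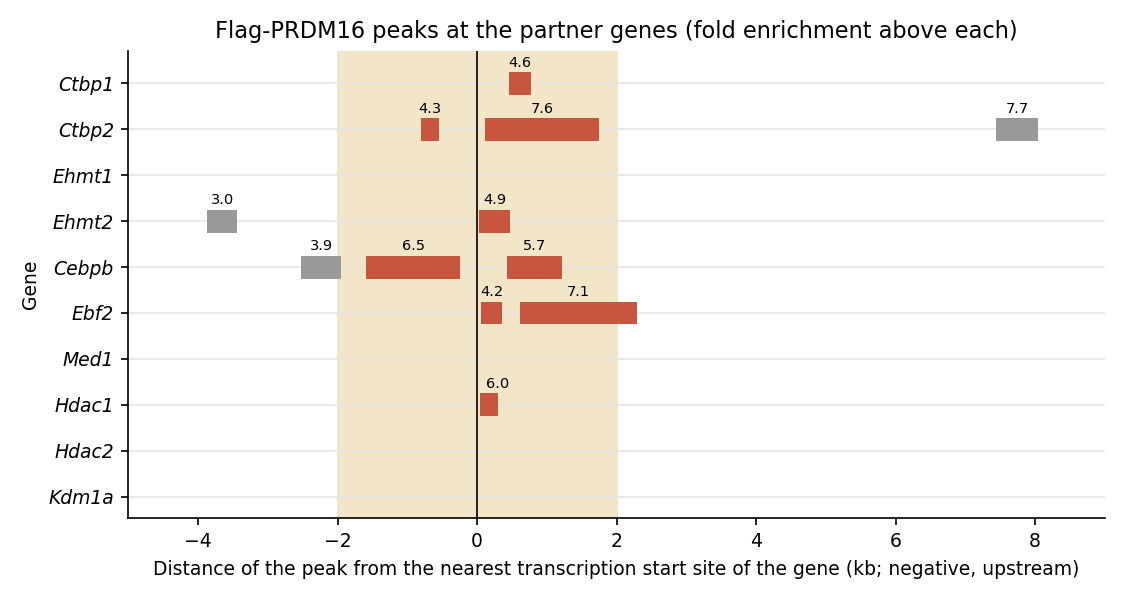
Flag-PRDM16 peaks by distance in kb from the nearest start site of each partner gene, drawn to scale, with the fold enrichment above each. Promoter peaks are red, other peaks gray, and the shaded band spans 2 kb on either side; the *Med1* and *Kdm1a* peaks lie outside the plotted range, and *Ehmt1* and *Hdac2* have none near.

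AGATAA, the core read by factors of the GATA family, and CGGAAG, which ETS factors read, were searched on both strands. Neither occurred in the 300 bases around the summits of the 9 promoter peaks, where 6.48% and 14.98% of all 11258 peaks held them. AGATAA occurred in the 300 bases of the third *Ctbp2* peak, which is not at a promoter by the rule above.

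**Figure D5:**
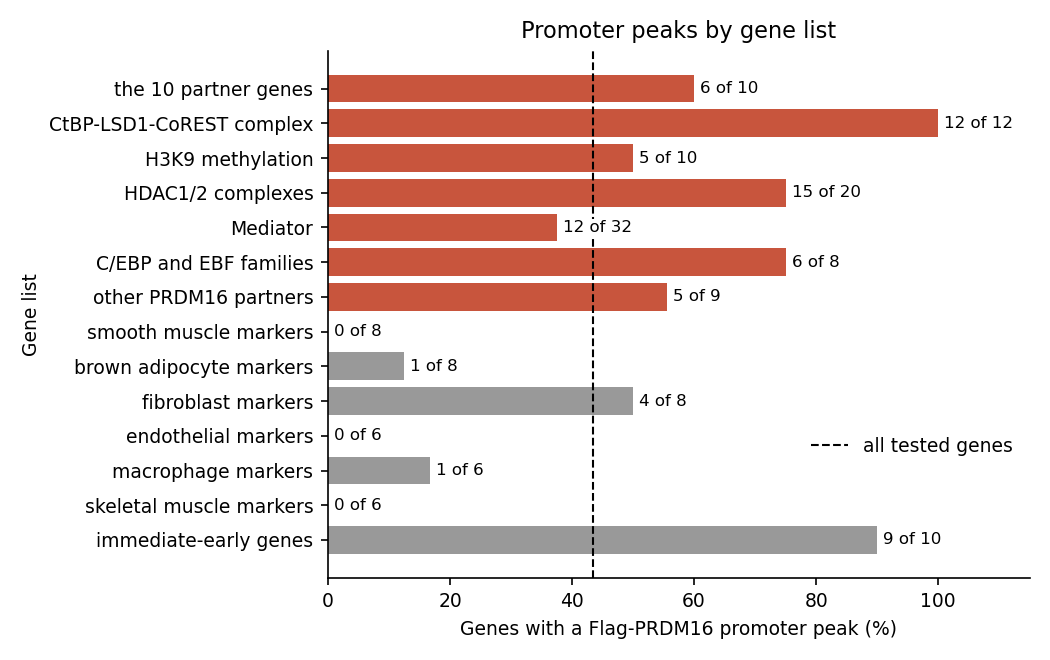
Share of genes with a Flag-PRDM16 promoter peak in each gene list, as percent, with the counts beside the bars. Red bars are the partner genes and their complexes and gray bars are marker lists; the dashed line is the 43.4% of all tested genes, which the CtBP list (12 of 12) exceeds and the smooth muscle list (0 of 8) does not reach.

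The other genes of the complexes were taken from 6 lists of 91 genes, of which 90 passed the filter on low values. None was called by limma, which called 1.07% of all genes. Of the 90, 9 had an unadjusted P under 0.05 (10%, against 12.7% of all genes tested), and 66 had lower and 24 higher means. Of all genes tested, 67.9% had lower means. A promoter peak was present at 55 of the 91 (60.4%).

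Among 12 partners of CtBP and KDM1A, every gene had a promoter peak. They include the CoREST scaffolds *Rcor1*, *Rcor2*, and *Rcor3* and the repressors *Zeb1* and *Zeb2*, and in aorta limma called 0 of 12, with an unadjusted P under 0.05 for 0, at a median log2 fold change of −0.14 beside −0.12 over all genes. Changes of the 3 genes with the largest folds were −0.53 ± 0.49 (SE, limma adjusted P = 0.693) for *Rcor2*, −0.28 ± 0.15 (0.476) for *Rreb1*, a zinc finger repressor, and −0.26 ± 0.16 (0.530) for *Lcor*, a ligand-dependent corepressor.

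Of 10 other H3K9 genes limma called 0, with an unadjusted P under 0.05 for 3, and 5 had a promoter peak, among them the EHMT partners *Wiz* and *Zfp644*. *Cbx5*, which encodes the H3K9 reader HP1α, stood at 45.2, 43.0, and 41.8 TPM in controls 1, 2, and 3 and at 30.04, 33.0, and 32.1 TPM in Prdm16SMKO aortas 1, 2, and 3, without overlap. Its log2 fold change of −0.45 ± 0.11 SE reached an adjusted P of 0.117 in limma, and it had no promoter peak. *Cdyl* (−0.44 ± 0.20, limma adjusted P = 0.403) and *Zfp644* (−0.41 ± 0.17, 0.356) also had lower means. In this list 4 of 10 genes did not overlap, beside 19.0% of all genes. The counts without overlap in the other lists were 2 of 12 for the CtBP and KDM1A partners and 4 of 20 for the deacetylase complexes. They were 4 of 32 for Mediator, 1 of 7 tested for the C/EBP and EBF families, and 3 of 9 for the other PRDM16 partners.

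Of 20 genes of the NuRD, SIN3, and other complexes that carry histone deacetylases, limma called 0, with an unadjusted P under 0.05 for 3, and 15 had a promoter peak. *Sap30*, a subunit of the SIN3 complex, had the largest fold of any gene in the lists. It stood at 0.70, 0.81, and 0.52 TPM in controls 1, 2, and 3 and at 2.91, 1.89, and 1.85 TPM in Prdm16SMKO aortas 1, 2, and 3. The groups did not overlap, and the log2 fold change of 1.56 ± 0.35 SE, on the log2(TPM + 0.1) scale, gave an adjusted P of 0.0845 in limma, and of 0.0419 after rescaling by median ratio. With any 1 aorta left out, the limma adjusted P of *Sap30* was 0.137 to 0.358. *Mta3*, a NuRD subunit, changed by −0.40 ± 0.16 (SE, limma adjusted P = 0.348).

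Of 32 other Mediator genes limma called 0, with an unadjusted P under 0.05 for 0, and 12 (37.5%) had a promoter peak, with a median log2 fold change of −0.070. *Med25*, *Med14*, and *Med24* had the largest folds, −0.29 ± 0.15, −0.29 ± 0.16, and −0.28 ± 0.16 (SE), at limma adjusted P from 0.476 to 0.505. Mediator was the list with the smallest share of promoter peaks among the 6.

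Of 8 genes of the C/EBP and EBF families 7 were tested, limma called 0, with an unadjusted P under 0.05 for 1, and 6 had a promoter peak. *Cebpe*, a granulocyte factor, was listed at 0 in every aorta. *Ddit3*, which encodes the stress-induced C/EBP relative CHOP, stood at 37.6, 34.3, and 33.0 TPM in controls 1, 2, and 3 and at 39.4, 50.5, and 43.0 TPM in Prdm16SMKO aortas 1, 2, and 3, without overlap (log2 fold change 0.34 ± 0.13 SE, limma adjusted P = 0.335, and 0.0386 after rescaling by median ratio). With any 1 aorta left out, its limma adjusted P was 0.406 to 0.582. *Cebpd* (−0.32 ± 0.16, limma adjusted P = 0.452) and *Cebpa* (−0.23 ± 0.43, 0.870) had lower means. *Cebpa*, an adipocyte factor, was lowest in control 1 (13.4 TPM) and highest in control 2 (43.9 TPM), the aortas where *Cebpb* and the brown adipocyte markers were also lowest and highest.

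Of 9 other PRDM16 partners limma called 0, with an unadjusted P under 0.05 for 2, and 5 had a promoter peak. *Smad3*, a transducer of TGF-β signals, stood at 13.9, 11.5, and 10.3 TPM in controls 1, 2, and 3 and at 8.21, 7.61, and 6.52 TPM in Prdm16SMKO aortas 1, 2, and 3. The groups did not overlap, and the log2 fold change was −0.66 ± 0.17 SE with a limma adjusted P of 0.130. *Ski*, a corepressor of SMAD proteins, changed by −0.40 ± 0.15 (limma adjusted P = 0.309) and *Pparg*, the main adipocyte receptor, by 0.49 ± 0.32 (0.553).

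Marker lists gave the cellular setting of both experiments. In aorta 7 of 8 smooth muscle markers had lower means in Prdm16SMKO mice, as had 67.9% of all genes tested, and none passed the adjusted threshold. Of the 8, 5 had an unadjusted limma P under 0.05, beside 12.7% of all genes tested, and 5 did not overlap, beside 19.0%. *Des*, with its higher mean, was among the 5 in both counts. The median log2 fold change of this list was −0.32, beside −0.12 over all genes tested. Of all marker lists *Nr4a1*, an immediate-early gene, was the 1 gene that the limma fit called (log2 fold change −1.32 ± 0.20 SE, limma adjusted P = 0.0198). In fibroblasts, Flag-PRDM16 promoter peaks stood at 4 of 8 fibroblast markers and 9 of 10 immediate-early genes, beside 43.4% of all tested genes matched to RefSeq. They stood at 1 of 8 brown adipocyte and 1 of 6 macrophage markers, and at 0 of 8 smooth muscle, 0 of 6 endothelial, and 0 of 6 skeletal muscle markers.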

How the data were processed

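RNA-Seq was available for 3 control and 3 Prdm16SMKO thoracic aortas and ChIP-Seq peak lists for 1 anti-Flag library each of PRDM16 and vector cells. The IgG libraries were not analysed here. Aortas were grouped by sample title, the control columns being named WT in the table. Nothing in the labels says how the aortas were collected beyond separate replicates, so P values measure the spread between these samples. The members, lists, and tests were chosen with earlier results of these data known.

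The authors deposited TPM per gene and aorta from poly(A)-selected libraries. The submitters' processing notes name cutadapt 2.3, STAR 2.7.8a, and RSEM 1.3.3. TPM keeps no depth, so the depth per aorta is unknown and no count model was fitted. The authors deposited for each peak a fold enrichment (a ratio over local background), −log10 p, and −log10 q, from Bowtie2 2.3.4.1 and MACS2 with a stated q threshold of 0.01. The list also holds peaks of larger q. The peak lists were used as deposited, with no read counts behind them here, so no interval for counting error was computed.

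Here log2(TPM + 0.1) was fitted with limma 3.58.1 in R 4.3.3 (lmFit, eBayes with trend) for the 15668 genes whose TPM averaged 0.5 or more across the 6 aortas, with Benjamini-Hochberg adjusted P under 0.05 over all of them and no covariate. Fold changes are on that scale and understate changes of low genes. *Ddit3* has a second row at 0, which was not used. Paralog ratios were compared by exact two-sided permutation of 3 against 3. Peaks were placed by their center against curated transcripts of RefSeq on GRCm38.p6, and sequences were read with pysam 0.24.0. The fit was tested on simulated data. Named genes are the members, *Prdm16*, and of each list the called genes or, with none called, the 3 with the largest fold at a mean TPM of at least 1. A gene that this rule names is not reported here. Of the marker lists, genes at 0 and called genes were named. *Acta2*, *Des*, *Fabp4*, *Zbtb12*, *Fbxl20*, and the list genes given only with their peaks were named after their values were seen. Protein sequences were not analysed here. Alternatives were other pseudocounts, filters, scalings, and promoter windows, a fit without trend, the replicate number as a block, each aorta left out, and stricter q. No per-sample column was left out.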

Additional observations from a re-analysis of the deposited data

How the results depend on the processing

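No member was called under any of the 14 alternatives of the limma fit, and in 129 of 140 refits a member kept its direction. The other filters, the fit without trend, and the replicate block leave each log2 fold change as it was. Their refits, counted in the 129, could not turn a direction. Direction turned after rescaling by median ratio for *Ctbp2* (0.010), *Cebpb* (0.093), and *Med1* (0.019), and after quantile normalization for *Ctbp2* (0.00017), *Cebpb* (0.12), and *Hdac1* (0.016), log2 fold changes close to 0 after both scalings brought the median of all genes near 0. It also turned without Prdm16SMKO aorta 2 for *Ehmt2* (−0.076), without control 2 or Prdm16SMKO aorta 1 for *Cebpb* (0.25 and 0.065), without control 1 for *Med1* (0.012), without Prdm16SMKO aorta 3 for *Kdm1a* (0.0016), and without control 2 or Prdm16SMKO aorta 2 for *Cebpa* (0.18 and 0.090). Leaving out 1 aorta moved the log2 fold change of *Cebpb* from −0.29 to 0.25, of *Ehmt2* from −0.076 to 0.23, of *Med1* from −0.23 to 0.012, of *Kdm1a* from −0.35 to 0.0016, of *Ctbp1* from −0.31 to −0.10, of *Ctbp2* from −0.21 to −0.037, of *Ehmt1* from −0.49 to −0.20, of *Hdac1* from −0.23 to −0.019, of *Ebf2* from −0.47 to −0.11, of *Hdac2* from −0.30 to −0.19, of *Cebpa* from −0.67 to 0.18, and of *Rcor2* from −1.06 to −0.12.

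Counts of called genes were 110 without a filter, 413 by median ratio (200 higher, 213 lower), 392 by quantile normalization (189 higher, 203 lower), and 48 without a trend, against 168 (61 higher, 107 lower), and 91, 99, and 93 without control 1, 2, or 3 and 105, 127, and 141 without Prdm16SMKO aorta 1, 2, or 3. Of the fixed lists, 2 genes were called by median ratio and 2 by quantile normalization, *Sap30* (1.68 and 1.62) and *Ddit3* (0.46 and 0.48). *Prdm16* was called by median ratio (−0.73), quantile normalization (−0.72), and without Prdm16SMKO aorta 2. Why these calls moved was not tested. The replicate number as a block called 184 genes and 0 members. Deviations from the group means correlated at −0.0246, −0.0700, and −0.00896 between same-numbered aortas. Differently numbered aortas were not compared, so whether the replicate numbers pair the aortas was not tested.

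With a window from 1 kb upstream to 100 bp downstream, 2 members had a promoter peak (*Ctbp2* and *Cebpb*, 14.2% of all genes). Of the members, 6 kept one in the windows of 1 kb and 5 kb, by summit, by any overlap, and at q of at most 0.01 and 0.001, and 4 at q of at most 1e-05. In whole peaks, 1 promoter peak of the 9 held AGATAA. The *Ehmt1* to *Ehmt2* log2 ratio difference was −0.42 on log2(TPM + 1) and kept its direction without any 1 aorta, as did the other ratios. Protein comparisons were not run. TPM without depth limits what can be said of low genes such as *Ebf2*, and 3 aortas against 3 cannot give an exact P below 0.1.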

Other observations

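The *Prdm16* gene itself held 4 Flag-PRDM16 peaks, none within 2 kb of its start site. Of these, 2 lay in coding exons, chr4:154340770-154342101 with a fold enrichment of 11.5, above 98.4% of all peaks, and chr4:154528574-154528903 with 7.86. The other 2 lay in introns, with fold enrichments of 8.44 and 4.92. The cells carried a lentivirus for Flag-PRDM16, and the part of vector DNA in the exon peaks was not tested.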
